A study of Mus musculus with 12 samples.

Results

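WWP2 and the other ubiquitin ligases of the NEDD4 family were examined in the hippocampal transcriptome of USF-1-deficient mice. The group comprised 10 genes of the 55487 in the table: the 9 HECT ligases of the family, Wwp2, Wwp1, Itch, Nedd4, Nedd4l, Smurf1, Smurf2, Hecw1 and Hecw2, and their adaptor Ndfip1. The genes were found by their symbols, and the family was chosen by a measured value, since the normalised counts of Wwp2 were lower in USF-1 KO than in WT mice without overlap. The genotype difference of Wwp2 is therefore a description, and no test is given for it. All 10 genes passed the limit on low values (10 normalised counts on average over all mice) and were among the 18221 genes tested.

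The hippocampi came from 6 WT and 6 USF-1 KO mice of the strain C57Bl/6JRccHsd, aged 3 to 4 months, with 1 RNA library per mouse. Both genotypes were littermates from matings of heterozygous USF-1-deficient mice, and the Usf1 gene was disrupted throughout the body and from conception on. By the labels, the WT group held 4 females and 2 males, and the KO group 2 females and 4 males. The mice are named here by their genotype and number.

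Ligases of this family carry a C2 domain that binds membranes, WW domains that hold proline-rich PY motifs of their targets, and a catalytic HECT domain that takes up ubiquitin before passing it on. They mark membrane receptors, ion channels and transcription factors for sorting or degradation. In neurons, members of the family act in axon and dendrite growth and in the turnover of synaptic receptors. USF-1 is a basic helix-loop-helix protein, and the DNA motif it recognises is the E-box CACGTG.

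The promoter of Wwp2 is shown because it held this motif. RefSeq promoter windows (GRCm38.p6, 250 bases before to 50 bases after a gene start) were given for 5 of the 10 genes, and CACGTG was found in 1 of the 5. The motif reads the same on both strands. It was not found in the windows of Nedd4 (a pair of windows), Smurf1, Smurf2 and Hecw2. In the window of Wwp2 it lay at chr8:107436364-107436369, at positions −6 to −1 before the RefSeq start at 107436370, so that it spanned the gene start given in the deposited table, 107436365. The following line gives the 250 bases before the RefSeq start, chr8:107436120-107436369 on the forward strand, with the motif in capitals.
Wwp2 promoter: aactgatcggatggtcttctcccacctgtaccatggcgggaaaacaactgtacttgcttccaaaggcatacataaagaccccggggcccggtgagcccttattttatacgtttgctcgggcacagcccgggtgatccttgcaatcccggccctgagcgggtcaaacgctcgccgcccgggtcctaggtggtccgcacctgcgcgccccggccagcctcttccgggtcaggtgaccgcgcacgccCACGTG
Of all 27025 genes with a promoter window, 2187 (8.09%) held the motif in at least 1 window, and of all 32851 windows 2349 (7.15%) did. The match describes the sequence only, since binding was not measured.

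The libraries held between 23369928 and 32091173 reads on genes in WT mice (median 26767182) and between 21679622 and 30859179 in KO mice (median 24031310). Values are normalised counts, that is, reads divided by 1 size factor per library. The targeted gene, Usf1 (ENSMUSG00000026641), ranged from 842 to 1583 normalised counts in WT and from 117 to 163 in KO mice. Its log2 fold change was −3.29 (SE 0.14, adjusted p = 1.77e-08, limma), and every library lay on the side of its label. The lowest WT value, 842, was that of WT 493, and the next lowest was 1425. All 8 markers of hippocampal excitatory neurons were read in all 12 mice, with summed levels of 165267 to 241301 normalised counts.

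Wwp2 (ENSMUSG00000031930, GRCm38 chr8:107436365-107558595, forward strand) encodes a ligase known for ubiquitinating OCT4, and hosts the microRNA gene Mir140 within its span. In the WT mice its normalised count was 1123 in WT 490, 1105 in WT 573, 1089 in WT 523, 1030 in WT 522, 1110 in WT 493 and 1095 in WT 547. In the KO mice it was 910 in KO 488, 748 in KO 530, 806 in KO 484, 837 in KO 553, 814 in KO 564 and 871 in KO 482. All 6 KO mice lay below the lowest WT mouse, with a gap between 910 (KO 488) and 1030 (WT 522). The mean was 1092 ± 32.6 in WT and 831 ± 55.9 in KO mice (SD, n = 6 each), or 76.1% of the WT mean. The log2 fold change was −0.40 (SE 0.05). Among all tested genes, 1.08% were lower in KO without overlap, which is the property Wwp2 was picked for. The WT values were close together, with a coefficient of variation of 2.98%, and WT 522 was the lowest of them.

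**Figure D1:**
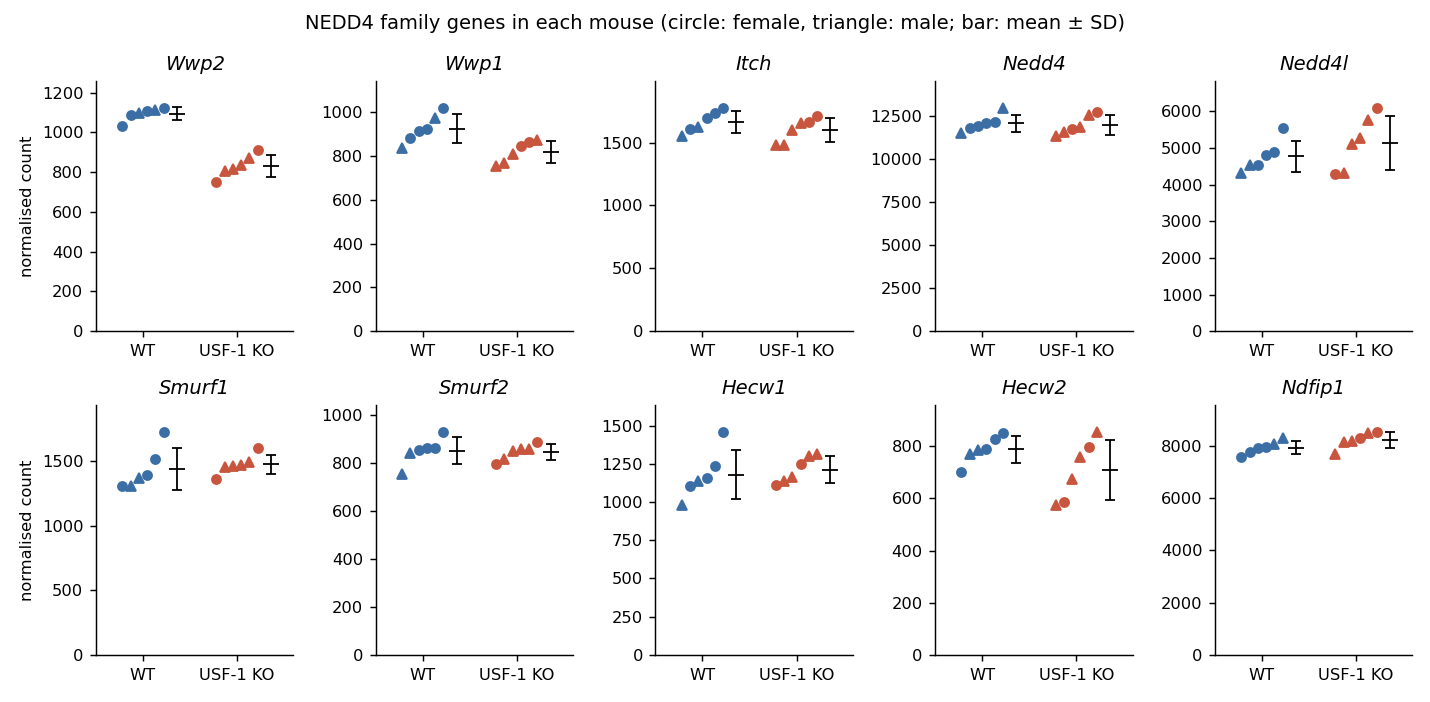
Normalised counts of the 9 ligases and Ndfip1 in each of 6 WT (blue) and 6 USF-1 KO (red) mice, sorted by value within a genotype, with circles for females, triangles for males and bars for the mean ± SD. The 6 Wwp2 values of KO mice (748 to 910) lie below all 6 WT values (1030 to 1123), and in the other 9 panels the genotypes overlap.

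Between 668 and 1412 reads per library stood behind these values of Wwp2. Of the 8910 stretches of 50 bases in its transcripts, 21 (0.236%) also occurred in another gene, Mir140 in each case, and 0 occurred in another gene of the family. Nearly all of its sequence was thus distinct from that of other genes. Mir140 itself (chr8:107551244-107551313) had 8 reads over all 12 libraries and at most 3 in a library, too few for a comparison of the precursor, and mature microRNAs are not what these libraries measure.

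In a piece of hippocampus, fewer cells of a type and less RNA per cell cannot be told apart. The levels of cell type markers are therefore given beside Wwp2. The summed level of 8 oligodendrocyte markers was 86433 to 186823 normalised counts in WT (median 154093) and 74317 to 113554 in KO mice (median 97168). All 8 of these markers were lower on average in KO (log2 fold changes of −0.90 to −0.59, median −0.68). Limma called 1 of them, Ugt8a, an enzyme of myelin lipid synthesis (log2 fold change −0.90, adjusted p = 0.0167), edgeR also called 1, and DESeq2 called all 8. The shares called among all tested genes were 0.9%, 0.829% and 3.35%, in the same order.

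Within genotypes the level of Wwp2 and the oligodendrocyte sum moved together, with a Pearson r of 0.69 over 12 mice after centring each genotype on its mean. Both values of a mouse come from the same library and share its size factor. KO 530 had both the lowest Wwp2, 748, and the lowest sum, 74317, and KO 488 and KO 482, with sums of 112560 and 113554, had the highest Wwp2 of the KO mice, 910 and 871. WT 522 had a sum of 86433, within the range of the KO mice, and its Wwp2 was 1030. That its Wwp2 was above that of every KO mouse follows from the choice of Wwp2. With the oligodendrocyte level as a covariate, the log2 fold change of Wwp2 was −0.30 (SE 0.06) in place of −0.40. This covariate was itself lower in KO mice and was chosen after seeing the data. The fit with it therefore cannot separate the number of these cells from the genotype.

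**Figure D2:**
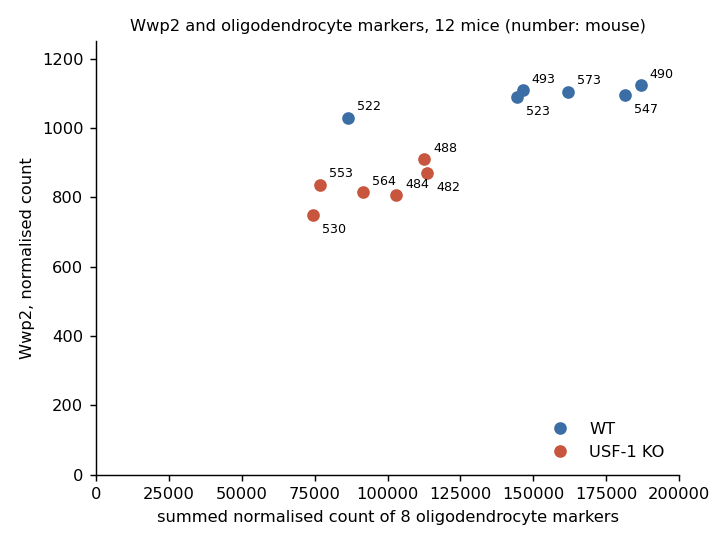
Normalised count of Wwp2 (vertical axis) against the summed normalised count of 8 oligodendrocyte markers (horizontal axis) in 6 WT and 6 USF-1 KO mice, each point labelled with the mouse's number. WT 522 lies among the KO mice on the horizontal axis (86433). Its Wwp2 (1030) is above all of theirs, which holds for every WT mouse by the choice of Wwp2.

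Of the other cell types, precursors of oligodendrocytes and microglia each had 6 of 6 markers with a negative fold change. Limma called 0 of them in either list, beside 0.9% of all tested genes. At an unadjusted p under 0.05 it gave 5 and 4, where 13.5% of all tested genes passed. edgeR called 0 in both lists (0.829% of all tested genes), and DESeq2 called 4 precursor markers and 0 microglial ones (3.35%). The summed precursor level was 6243 to 7682 in WT and 5603 to 6249 in KO mice, and the summed microglial level was 5178 to 7494 and 4907 to 5521. Their genotype-centred r with Wwp2 was 0.12 and −0.49. Astrocyte markers summed to 44949 to 54848 in WT and 45057 to 53589 in KO mice (r with Wwp2 0.09).

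Excitatory neuron markers, 8 in all, ran opposite to Wwp2 within genotypes, with an r of −0.77, the largest in size of the 8 lists. Their summed level was 171776 to 217738 normalised counts in WT (median 198574) and 165267 to 241301 in KO mice (median 220450), and 7 of 8 had a higher mean log2 level in KO (median log2 fold change 0.13). Limma, edgeR and DESeq2 called 0 of them, beside 0.9%, 0.829% and 3.35% of all tested genes. At an unadjusted p under 0.05 in limma 0 of them passed (13.5% of all tested genes). Inhibitory neuron markers summed to 17948 to 21011 in WT and 16862 to 19929 in KO mice, with 6 of 8 lower in KO (r with Wwp2 0.13). Limma, edgeR and DESeq2 called 0 of them, and 2 had an unadjusted p under 0.05 in limma (13.5% of all tested genes). Endothelial markers summed to 2911 to 3710 in WT and 2993 to 3621 in KO mice, with 2 of 6 lower in KO and an r of −0.00. The choroid plexus markers summed to 4189 to 237191 in WT and 3678 to 6234 in KO mice, since WT 493 and WT 490 held 149600 and 52020 normalised counts of Ttr, the choroid plexus carrier of thyroid hormone. Without those 2 mice the log2 fold change of Wwp2 was −0.38 (SE 0.06). With all 12 mice, the 8 choroid plexus markers all had a negative fold change (median log2 fold change −1.29). Limma and edgeR called 0 of the 8, and DESeq2 called 4 (3.35% of all tested genes). At an unadjusted p under 0.05 in limma 1 passed (13.5% of all tested genes). No marker of any of the 8 lists was at 0 in any mouse. The part of these cell types in the level of Wwp2 was not tested.

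Wwp1 (ENSMUSG00000041058, chr4:19608303-19708993, reverse strand) is the closest relative of Wwp2, and both ligases are known to act in the polarity of cortical neurons. In WT mice its normalised count was 1019 in WT 490, 924 in WT 573, 912 in WT 523, 879 in WT 522, 971 in WT 493 and 835 in WT 547. In KO mice it was 862 in KO 488, 847 in KO 530, 766 in KO 484, 756 in KO 553, 872 in KO 564 and 809 in KO 482. All 6 KO mice lay below the WT mean, but only 3 of them lay below the lowest WT mouse, so the genotypes overlapped. The mean was 924 ± 65.3 in WT and 819 ± 49.5 in KO mice (SD, n = 6 each), or 88.7% of the WT mean. The log2 fold change of −0.17 (SE 0.05) did not pass the test (adjusted p = 0.169, limma, unadjusted p = 0.00702). Its adjusted p ranged from 0.0811 with DESeq2 to 0.583 with the oligodendrocyte covariate. Of the stretches of 50 bases of Wwp1, 5.62% recurred in other genes, nearly all of them in the pseudogene Gm13416. How reads from such stretches were counted is not given in the sources used here. Their part in the level of Wwp1 was not tested.

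Among the 9 genes other than Wwp2, limma called 0, and edgeR and DESeq2 also called 0. Over all tested genes limma called 0.9%, edgeR 0.829% and DESeq2 3.35%. At an unadjusted p under 0.05, 1 of the 9 (Wwp1) would pass, where 13.5% of all tested genes did. A p that misses the threshold does not show that a gene was equal in both genotypes, and the errors given below show how large a difference each gene could still hold.

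Itch, Nedd4 and Nedd4l were not called by limma. Itch (ENSMUSG00000027598, chr2:155133509-155226855) encodes the ligase named after the itchy mouse and known for acting on JUN proteins in T cells. It ranged from 1550 to 1776 in WT mice (median 1660) and from 1479 to 1714 in KO mice (median 1628), with a log2 fold change of −0.06 (SE 0.05, adjusted p = 0.647, limma). Nedd4 (ENSMUSG00000032216, chr9:72662346-72749852), the founding member of the family, ranged from 11536 to 12991 in WT (median 12010) and from 11351 to 12777 in KO mice (median 11834), with a log2 fold change of −0.01 (SE 0.04, adjusted p = 0.933, limma). The genotypes overlapped in both genes, with 2 KO mice below the lowest WT mouse in Itch and 1 in Nedd4.

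Nedd4l (ENSMUSG00000024589, chr18:64887705-65217828) encodes the ligase known for removing the epithelial sodium channel from the cell surface. It ranged from 4309 to 5540 in WT (median 4684) and from 4304 to 6100 in KO mice (median 5186), with a log2 fold change of 0.10 (SE 0.09, adjusted p = 0.670, limma). Its KO values were spread widely, and the highest, 6100, was that of KO 530, the mouse with the lowest Wwp2. Of its exon bases, 277 overlap the gene A330084C13Rik on the opposite strand, and whether the counting used strand is not given in the sources used here.

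The SMURF ligases regulate TGF-beta and BMP signalling. Smurf1 (ENSMUSG00000038780, chr5:144876495-144965847) ranged from 1307 to 1727 in WT (median 1380) and from 1360 to 1597 in KO mice (median 1464), with a log2 fold change of 0.04 (SE 0.06, adjusted p = 0.825, limma). Smurf2 (ENSMUSG00000018363, chr11:106820066-106920715) ranged from 757 to 933 in WT (median 861) and from 798 to 889 in KO mice (median 855), with a log2 fold change of −0.01 (SE 0.05, adjusted p = 0.955, limma). In both genes the KO range lay inside the WT range, and the highest value of either gene was that of WT 522.

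Hecw1 (ENSMUSG00000021301, chr13:14226438-14523228) encodes a ligase found mainly in neural tissue. It ranged from 979 to 1461 in WT (median 1149) and from 1114 to 1314 in KO mice (median 1204), with a log2 fold change of 0.05 (SE 0.08, adjusted p = 0.838, limma). Its relative Hecw2 (ENSMUSG00000042807, chr1:53806876-54195168) ranged from 702 to 848 in WT (median 788) and from 575 to 856 in KO mice (median 716). Its log2 fold change of −0.17 (SE 0.09, adjusted p = 0.468, limma) was as large as that of Wwp1 with a wider error. The KO values of Hecw2 were spread, with 575 in KO 553 and 587 in KO 530 but 856 in KO 484, above every WT mouse.

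Ndfip1 (ENSMUSG00000024425, chr18:38410396-38465303) encodes a membrane adaptor with PY motifs that recruits the ligases of the family to their targets and activates them. It ranged from 7573 to 8321 in WT (median 7929) and from 7709 to 8554 in KO mice (median 8246). Its log2 fold change was 0.05 (SE 0.04, adjusted p = 0.567, limma), and 5 of 6 KO mice were above the WT mean.

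**Figure D3:**
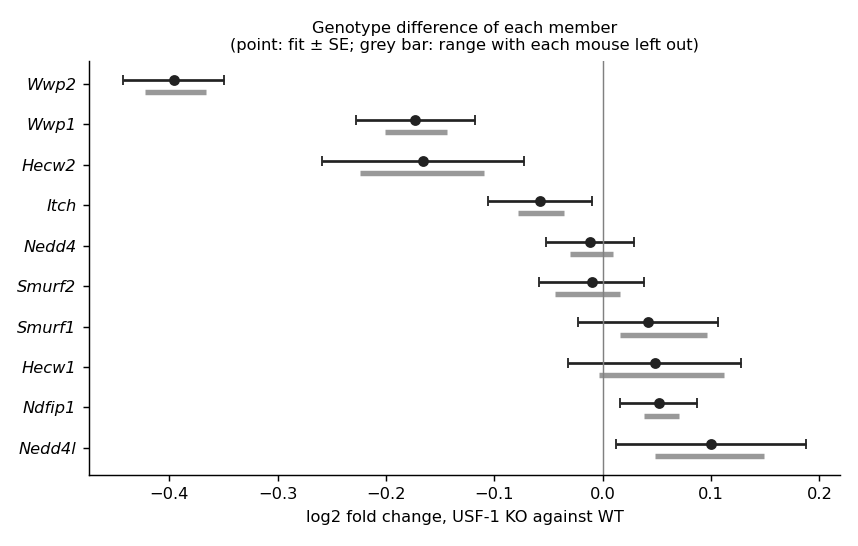
Log2 fold change of USF-1 KO against WT for the 10 genes (horizontal axis, point with SE), with grey bars for the range when each of the 12 mice is left out in turn. Wwp2 stands at −0.40 with a range of −0.42 to −0.37, and Wwp1 and Hecw2 stand at −0.17.

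Levels of different genes were compared per kilobase of exon, with all annotated exons of a gene counted. Which transcripts the hippocampus used was not examined, so the order also depends on these lengths. In the WT mice the order was Ndfip1 with 1254 normalised counts per kb, Nedd4 with 1101, Nedd4l with 270, Smurf1 with 227 and Itch with 171. Wwp1 with 143, Smurf2 with 138, Wwp2 with 123, Hecw1 with 80.4 and Hecw2 with 60.8 followed. By this measure Nedd4 was the most abundant ligase, and Wwp2 was seventh of the 9 ligases. Of the neighbours in this order, the WT ranges overlapped between Nedd4l and Smurf1, between Wwp1 and Smurf2 and between Smurf2 and Wwp2, so these neighbours were not separated by the spread between mice. In KO mice the level of Wwp2 per kb was 93.7 (84.4 to 102.6), between Wwp1 (127) and Hecw1 (82.6), and its range overlapped that of Hecw1 (75.9 to 89.5).

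**Figure D4:**
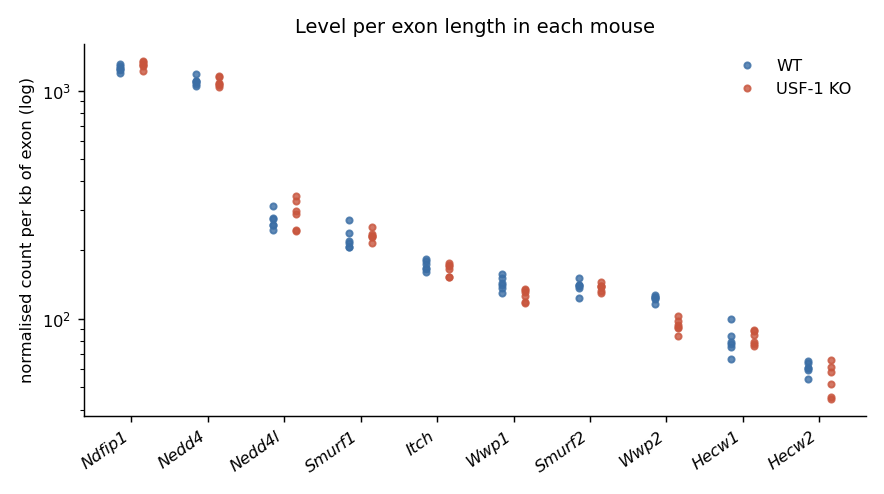
Normalised count per kb of exon (log axis) of the 10 genes in 6 WT (blue) and 6 USF-1 KO (red) mice, ordered by the WT mean. Ndfip1 (1254) and Nedd4 (1101) lie far above the others, and Wwp2 is at 123 in WT and 93.7 in KO mice.

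The summed level of the 9 ligases per kb was 2315 ± 69.2 in WT and 2276 ± 94.2 in KO mice (SD, n = 6 each), with ranges of 2195 to 2383 and 2157 to 2420 that overlapped. Wwp2 made up 5.32% ± 0.27 of this sum in WT and 4.13% ± 0.42 in KO mice (SD, n = 6 each). The ratio of the Wwp2 to the Wwp1 normalised count was 1.10 to 1.31 in WT (mean 1.19 ± 0.07, SD, n = 6) and 0.884 to 1.11 in KO mice (mean 1.02 ± 0.09, SD, n = 6). The ranges of the ratio overlapped through KO 553 (1.11) and WT 490 (1.10). The share and the ratio contain the value that chose the family and are descriptions, and the share also depends on the exon lengths.

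The sexes were compared with genotype held in the fit. Limma and edgeR called 0 of the 10 genes for sex, where each called 0.0549% of all tested genes. The lowest adjusted p among them was that of Itch, whose log2 difference of males against females was −0.11 (SE 0.04, adjusted p = 0.715, limma, unadjusted p = 0.0220). At an unadjusted p under 0.05, Itch was the only 1 of the 10, and 6.45% of all tested genes passed. Wwp2 had means of 1087 in 4 WT females, 1103 in 2 WT males, 829 in 2 KO females and 832 in 4 KO males. That the genotypes lay apart in both sexes follows from the choice of Wwp2. The interaction of genotype and sex was called in 0 of the 10 genes by limma and by edgeR, as in 0.0% of all tested genes, and 0 of the 10 had an unadjusted p under 0.05 (3.45% of all tested genes, limma). For Wwp2 the interaction was −0.01 on the log2 scale (SE 0.11). With 2 mice in each of 2 of the 4 cells, these comparisons were coarse.

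The genes most like Wwp2 were sought among the 12676 genes that averaged 100 normalised counts or more, by the Pearson r over 12 mice after centring each genotype on its mean. The highest were Mtss1 with 0.94, Gm9800 with 0.94, Pfdn1 with 0.93, Mtres1 with 0.92 and Rpl36a-ps3 with 0.91. Being the extremes of many genes over few mice, which share libraries and size factors, these values are large by selection. None of the 5 was called between genotypes by limma, and the largest difference was that of Gm9800 (log2 fold change −0.28, adjusted p = 0.0985). Within the family the r with Wwp2 was 0.39 for Hecw2, 0.20 for Wwp1, −0.03 for Ndfip1, −0.13 for Itch, −0.21 for Hecw1, −0.41 for Nedd4, −0.64 for Smurf2, −0.69 for Smurf1 and −0.75 for Nedd4l. Nedd4l was thus high where Wwp2 was low within a genotype. Among the 45 pairs of the 10 genes the highest r was 0.79, between Smurf1 and Smurf2.

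The genes around Wwp2 on chromosome 8 were compared in the same fit. Within 200 kb of Wwp2, 6 other genes passed the limit on low values, and limma called 0 of them (0.9% of all tested genes). Upstream, Nob1, a factor of ribosome maturation on the opposite strand, had 608 ± 43.5 normalised counts in WT and 660 ± 50.3 in KO mice (SD, n = 6 each), a log2 fold change of 0.12 (SE 0.06, adjusted p = 0.425, limma). Nfat5, a transcription factor of the osmotic response, had a log2 fold change of 0.03 (SE 0.06, adjusted p = 0.871). Nqo1, a quinone reductase, had −0.16 (SE 0.21, adjusted p = 0.796), and the pseudogene Rps18-ps3 had −0.02 (SE 0.10, adjusted p = 0.957). Downstream, Psmd7, a proteasome subunit, had −0.04 (SE 0.03, adjusted p = 0.6249). The pseudogene Rps26-ps1, which lies inside Wwp2 on the opposite strand, had −0.16 (SE 0.09, adjusted p = 0.460). The fold changes of these 6 genes thus lay between −0.16 and 0.12, and 0 of them had an unadjusted p under 0.05 (13.5% of all tested genes, limma).

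**Figure D5:**
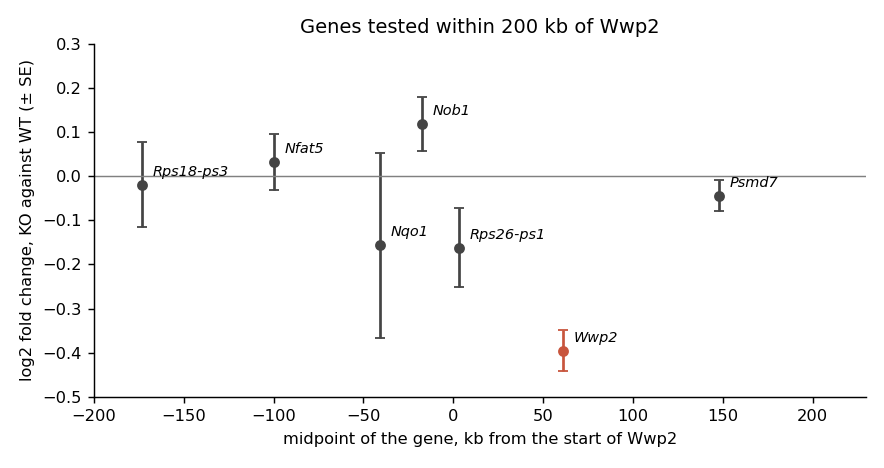
Log2 fold change with SE (vertical axis) of the 7 genes tested within 200 kb of Wwp2, against the distance of the gene's midpoint from the start of Wwp2 in kb (horizontal axis). Wwp2 (red) lies at −0.40 and the 6 neighbours (grey) lie between −0.16 and 0.12.

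Other HECT ligases, outside the NEDD4 family, comprised 18 genes, all tested. Limma, edgeR and DESeq2 called 0 of them, beside 0.9%, 0.829% and 3.35% of all tested genes. At an unadjusted p under 0.05 in limma 2 of the 18 passed (13.5% of all tested genes). The median log2 fold change of the 18 was 0.02, beside −0.00 over all genes tested. The largest differences were those of Herc6 (−0.41, SE 0.26, adjusted p = 0.540) and Hectd2 (0.20, SE 0.09, adjusted p = 0.355).

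Adaptors and regulators of the family comprised 24 genes, all tested. Limma called 1 of them lower and 0 higher in KO, where 0.741% and 0.159% of all tested genes were called. At an unadjusted p under 0.05 in limma 6 of the 24 passed, where 13.5% of all tested genes did. The median log2 fold change of the list was −0.06. The gene that fell was Arrdc3 (ENSMUSG00000074794, chr13:80883384-80896042), an arrestin-like adaptor with PY motifs that couples receptors to these ligases. Its normalised count was 1339 in WT 490, 1255 in WT 573, 1255 in WT 523, 1052 in WT 522, 1177 in WT 493 and 1263 in WT 547. In KO mice it was 963 in KO 488, 953 in KO 530, 967 in KO 484, 972 in KO 553, 1010 in KO 564 and 963 in KO 482. All 6 KO values lay in a narrow band below the lowest WT mouse, which was again WT 522. Of all tested genes, 1.08% were lower in KO without overlap. In this list the same held for Wbp1 (591 to 660 in KO, 661 to 770 in WT mice) and Smad7 (410 to 440 and 452 to 493). Both were named after their values were seen, and limma called neither. The log2 fold change of Arrdc3 was −0.33 (SE 0.05, adjusted p = 0.00728, limma). With the oligodendrocyte level as a covariate it was −0.20 and no longer called (adjusted p = 0.218, limma). Over all tested genes, the calls under this covariate were 19 in place of 164. CACGTG was not in any of the 3 promoter windows of Arrdc3. Of the 18 genes of this list with a window, 4 held it (Arrdc4, N4bp3, Wbp2 and Sgk1), beside 8.09% of all genes with a window. It was held by 0 of 15 other HECT ligases with a window and 3 of 8 WWP2 substrates. Of the substrates of the other ligases 1 of 18 held it, and of the ubiquitin, E1 and E2 genes 1 of 12.

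DESeq2 called 4 of the 24 genes of the adaptor list, and 3.35% of all tested genes. Beside Arrdc3 these were Laptm4b (log2 fold change −0.21, adjusted p = 0.0112), a lysosomal membrane protein with PY motifs, Wbp1 (−0.18, adjusted p = 0.0282), a WW domain binding protein, and N4bp1 (0.15, adjusted p = 0.0387), an inhibitor of ITCH. These 3 were named after their values were seen. In limma their adjusted p were 0.0865, 0.103 and 0.126. Without WT 522, limma called 4 genes of the list, which were Arrdc3, Laptm4b, Wbp1 and Spart, the last of them a PY motif protein of lipid droplets (log2 fold change −0.24, adjusted p = 0.0173). Without that mouse 2.83% of all tested genes were called.

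Of 12 known substrates of WWP2, 11 were tested. Limma, edgeR and DESeq2 called 0 of the 11, beside 0.9%, 0.829% and 3.35% of all tested genes. At an unadjusted p under 0.05 in limma 1 of the 11 passed (13.5% of all tested genes). The median log2 fold change of the 11 was 0.03. The remaining gene, Pou5f1, which encodes OCT4, had 0 reads in every mouse. The largest differences were those of Ticam1 (−0.17, SE 0.09, adjusted p = 0.419), an adaptor of Toll-like receptors, and Scnn1a (0.16, SE 0.17, adjusted p = 0.731), a subunit of the epithelial sodium channel. These are transcript levels, and ubiquitination acts on proteins, which were not measured.

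Of 27 substrates of the other ligases, 25 were tested, with a median log2 fold change of 0.03. Limma called 1 higher and 0 lower in KO, where 0.159% and 0.741% of all tested genes were called. At an unadjusted p under 0.05 in limma 3 of the 25 passed (13.5% of all tested genes). The other 2 substrates were under the limit on low values. The gene that rose was Jun (ENSMUSG00000052684, chr4:95049034-95052222), a transcription factor that ITCH ubiquitinates. Its normalised count was 1812 in WT 490, 1939 in WT 573, 2192 in WT 523, 1788 in WT 522, 2060 in WT 493 and 1701 in WT 547. In KO mice it was 2097 in KO 488, 2478 in KO 530, 2265 in KO 484, 2326 in KO 553, 2520 in KO 564 and 2499 in KO 482. The genotypes overlapped through WT 523 and KO 488 only, and 5 of 6 KO mice were above the highest WT mouse. The log2 fold change was 0.31 (SE 0.06, adjusted p = 0.0424, limma). The call stood close to the threshold and was lost under 14 of 24 alternatives, with adjusted p between 0.00176 and 0.320 over all of them, while the log2 fold change stayed between 0.27 and 0.35. Leaving out any of 8 mice (WT 490, WT 573, WT 547, KO 530, KO 484, KO 553, KO 564 or KO 482) was enough to lose it.

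Ubiquitin genes and the E1 and E2 enzymes that feed ubiquitin to HECT ligases comprised 18 genes, of which 17 were tested. Limma, edgeR and DESeq2 called 0 of the 17, beside 0.9%, 0.829% and 3.35% of all tested genes. At an unadjusted p under 0.05 in limma 0 of the 17 passed (13.5% of all tested genes). The median log2 fold change of the 17 was 0.03. The largest differences were those of Uba6 (−0.17, SE 0.08, adjusted p = 0.395), an activating enzyme, and Ube2e2 (0.13, SE 0.08, adjusted p = 0.519), a conjugating enzyme.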

How the data were processed

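RNA was isolated from the hippocampus of 12 mice, and the authors checked its integrity. Reads were aligned with the RNA-Seq app of Illumina Basespace and STAR, and the submitters' processing notes name STAR 2.5.0a, edgeR 3.22.2 and the build mm10. The counter, the annotation version and the use of strand are not given in the sources used here. The deposited values are a normalised signal, the count of a gene divided by a DESeq2 size factor that the authors computed. In all 12 columns 100% of the values were whole multiples of a step (tolerance 0.01), which gave back the reads. Gene coordinates and exons came from GENCODE M21 on GRCm38. All 12 columns were used. No library repeated another (the pair most alike had a chi-square of 4.54 per degree of freedom). The legend of the study gives other numbers of each sex than the labels, and the labels were used. The labels do not say more than that each sample is a separate mouse.

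The main test was that of limma (version 3.58.1, R 4.3.3), two-sided, fitted with a trend of the variance on log2(normalised count + 1) with genotype alone. Genes averaging under 10 normalised counts were left out, p-values were adjusted by Benjamini-Hochberg over all genes tested, and the threshold was 0.05. Fold changes are on this log2 scale, and adjusted p without a named tool are from limma. Sex was tested with genotype as a covariate, and the interaction in the same design. As alternatives the pseudocount was set to 0.5 or 5, the lower limit was dropped or raised to 50, the values were quantile normalised or brought to equal library totals, the trend was dropped, sex was added, each mouse was left out in turn, and the recovered reads were tested with edgeR 4.0.16 (quasi-likelihood) and DESeq2 1.42.0. The scripts were tested on simulated counts. Levels per kb used the summed length of all exons of a gene. Figures used matplotlib 3.10.9 in Python 3.11.15.

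The genes and lists were chosen from general knowledge with earlier results of these data known. In each list the genes that limma called were named, or else the 2 with the largest fold change, as were the 5 genes most like Wwp2 and the neighbours within 200 kb. The results of some further genes of the lists are not reported here.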

Additional observations from a re-analysis of the deposited data

Results flagged for a closer look

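Within each genotype, the highest and lowest mouse was compared with the other 5 by Dixon's criterion (gap to the nearest value over the range, at its critical value for 6 mice), for 38 groups of values, of which 3 stood out. Chance gives about 1 in 20 groups, or 1.9 of 38. Wwp2 in WT 522 was the lowest of its group with 1030 normalised counts where the other WT mice had 1089 to 1123 (0.631 of the range). Usf1 in WT 493 was the lowest of its group with 841.8 against 1425 to 1583 (0.787 of the range). Arrdc3 in KO 564 was the highest of its group with 1010 against 953 to 972 (0.677 of the range). Without WT 522 the log2 fold change of Wwp2 was −0.41, and without WT 493 it was −0.39.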

How the results depend on the processing

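The log2 fold change of Wwp2 stayed between −0.42 and −0.37 with each mouse left out, and among 24 alternatives it moved by more than the spread between mice under 1, the oligodendrocyte level as a covariate (−0.30), which was chosen after seeing the data, as was leaving out the 2 mice with the most Ttr. The 9 other genes of the family, the other HECT ligases, the WWP2 substrates and the ubiquitin, E1 and E2 genes had 0 calls under all 24 alternatives, and the 10 genes had 0 calls for sex or for the interaction under the 19 run for each. Over all genes, 164 calls became 109 without the trend, 98 with sex as a covariate, 611 with DESeq2, 19 with the oligodendrocyte covariate, 59 without the 2 mice with the most Ttr, and between 64 (without WT 490) and 515 (without WT 522) with each mouse left out. Leaving out WT 573 (87), WT 547 (85), KO 530 (85), KO 484 (87), KO 553 (97) or KO 564 (72) also moved this count by over 1.5 times. The 1 call among adaptors and regulators became 4 with DESeq2 and 0 with the oligodendrocyte covariate, and was between 1 and 4 with each mouse left out. The 1 call among substrates of the other ligases (Jun) became 0 with no limit on the mean, quantile normalisation, no trend, sex as a covariate, the oligodendrocyte covariate and without the 2 mice with the most Ttr, and was between 0 and 1 with each mouse left out. The cause was not tested. No result reversed past the threshold. No paired analysis was possible because the labels give the genotypes no shared replicate numbers. With 6 mice a group, the errors for the family were 0.04 to 0.09 on the log2 scale. Differences well above these errors could also go uncalled, as did the −0.17 of Wwp1 (SE 0.05, adjusted p = 0.169, limma). Protein and ubiquitination were not measured.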
